A study of Mus musculus with 22 samples.

Results

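The SoxC genes Sox4, Sox11 and Sox12 were followed over 22 single mouse retinal cells. They were chosen by name, and all their probe sets in all cells were taken. The array measured 18193 genes through 45101 probe sets, of which 17 belonged to the 3 genes: 8 to Sox4, 6 to Sox11 and 3 to Sox12. The cells comprised 3 photoreceptors, the light-sensing cells (1 adult rod and 2 cells of P0, the day of birth), 13 ganglion cells, whose axons form the optic nerve (E12.5, 3 cells; E13.5, 1 cell; E14.5, 2 cells; E15.5, 3 cells; P0, 4 cells; E marks the embryonic day), and 6 amacrine cells, which are retinal interneurons (1 of E16.5 and 5 of P0). No treatment or mutation is named, and the sources used here name no strain, sex, animal or litter. Each cell was picked with a capillary after papain dissociation, and its cDNA was amplified by 35 cycles of PCR before hybridisation. Cells were assigned to a type only after profiling.

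SoxC proteins are transcription factors that bind the minor groove of DNA through an HMG box, the domain shared with the sex-determining factor SRY, and activate their targets through a domain at the opposite end of the protein. In the developing nervous system they come on as progenitors leave the cell cycle, and they help to switch on genes of young neurons such as those for tubulin and doublecortin. In the mouse retina, Sox4 and Sox11 are together needed for ganglion cells to form, and loss of either alone has a milder effect. Sox12 is the weakest activator of the family.

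The proximal promoters of the 3 genes are shown as a description, and no link between their letters and the signals below was tested. Each run covers 250 bases before and 50 bases after the annotated start, 5′ to 3′ on the minus strand of mouse build GRCm38.p6, from RefSeq: chr13:28953650-28953949 for Sox4, chr12:27342669-27342968 for Sox11 and chr2:152397997-152398296 for Sox12. All 3 genes were matched in the promoter table. Capitals mark the CCAAT box on either strand and the octamer ATGCAAAT, a POU-factor motif.
Sox4: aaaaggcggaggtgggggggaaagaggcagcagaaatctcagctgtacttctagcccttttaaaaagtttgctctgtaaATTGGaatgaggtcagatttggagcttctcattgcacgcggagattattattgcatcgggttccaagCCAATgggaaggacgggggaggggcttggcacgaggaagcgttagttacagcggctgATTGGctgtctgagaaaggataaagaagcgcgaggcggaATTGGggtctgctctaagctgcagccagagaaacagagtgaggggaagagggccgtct
Sox11: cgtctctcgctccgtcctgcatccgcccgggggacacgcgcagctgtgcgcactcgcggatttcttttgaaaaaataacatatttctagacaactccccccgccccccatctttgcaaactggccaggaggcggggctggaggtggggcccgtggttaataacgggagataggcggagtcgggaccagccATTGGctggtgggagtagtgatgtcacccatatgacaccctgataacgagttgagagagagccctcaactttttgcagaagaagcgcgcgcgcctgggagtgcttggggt
Sox12: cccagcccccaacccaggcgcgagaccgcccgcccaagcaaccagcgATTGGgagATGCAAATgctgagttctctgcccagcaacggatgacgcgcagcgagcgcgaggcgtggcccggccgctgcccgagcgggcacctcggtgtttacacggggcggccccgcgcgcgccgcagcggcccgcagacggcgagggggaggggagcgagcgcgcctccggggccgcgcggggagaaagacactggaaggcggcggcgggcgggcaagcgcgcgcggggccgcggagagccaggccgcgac
The Sox4 window held 4 CCAAT boxes and the other two windows 1 each, and 37.4% of the 32851 mouse promoter windows of this length held at least 1. The octamer occurred once, in Sox12, against 1.7% of all windows. The Sox motif AACAAT (in 10.7% of windows) and the TATA box TATAAA (in 13.6%) were in none of the 3, on either strand. An E box, written CANNTG and bound by basic helix-loop-helix factors, was found in each, as in 72.3% of windows. The GC box GGGCGG, present in 35.7% of windows, was found 2 times in Sox11 and 4 times in Sox12, overlapping matches counted, and was not found in the Sox4 window. GC content was 52.0% for Sox4, 58.7% for Sox11 and 76.7% for Sox12, and the median over all windows was 52.7%. The E box of Sox12 overlapped its octamer. A match describes the letters of the window only.

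Values are signal on the linear scale computed by the authors with MAS5, without detection calls. Signals below 200 were set to 200, or log2 7.64, before taking log2 values. A gene with a signal of 1000 or more is called detected in that cell. The cells held between 1517 and 4351 detected genes, with a median of 2995.5. Ganglion markers were detected at 5 to 9 of 9 in ganglion cells, against 0 to 3 in the other cells, and amacrine markers at 3 or 4 of 7 in amacrine cells, against 0 to 2 in the others. Photoreceptor markers were detected at 6 of 7 in each photoreceptor, against 0 to 2 in the other cells. The types had been named from such genes, so this is a check of labels only. Lens crystallins were detected in both cells of E14.5 (3 of 4) and in the cell of E13.5 (1 of 4), and globins in the cells of E14.5 and E15.5 (2 of 3). No crystallin or globin was detected at E12.5, at P0 or in an amacrine cell or photoreceptor.

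All 3 SoxC genes passed the filter for testing, a signal of 1000 or more in at least 3 of the 22 cells, which 7183 genes passed. At the probe set with the highest mean, Sox4 was detected in 19 cells, Sox11 in 16 and Sox12 in 18. All 3 together were detected in 14 cells: 0 of 3 photoreceptors, 9 of 9 embryonic ganglion cells, 2 of 4 P0 ganglion cells and 3 of 6 amacrine cells. None of the 3 was detected in P0 photoreceptor E1 and in P0 ganglion cell A6. The number of detected SoxC genes was thus complete in every embryonic ganglion cell and mixed at P0.

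**Figure D1:**
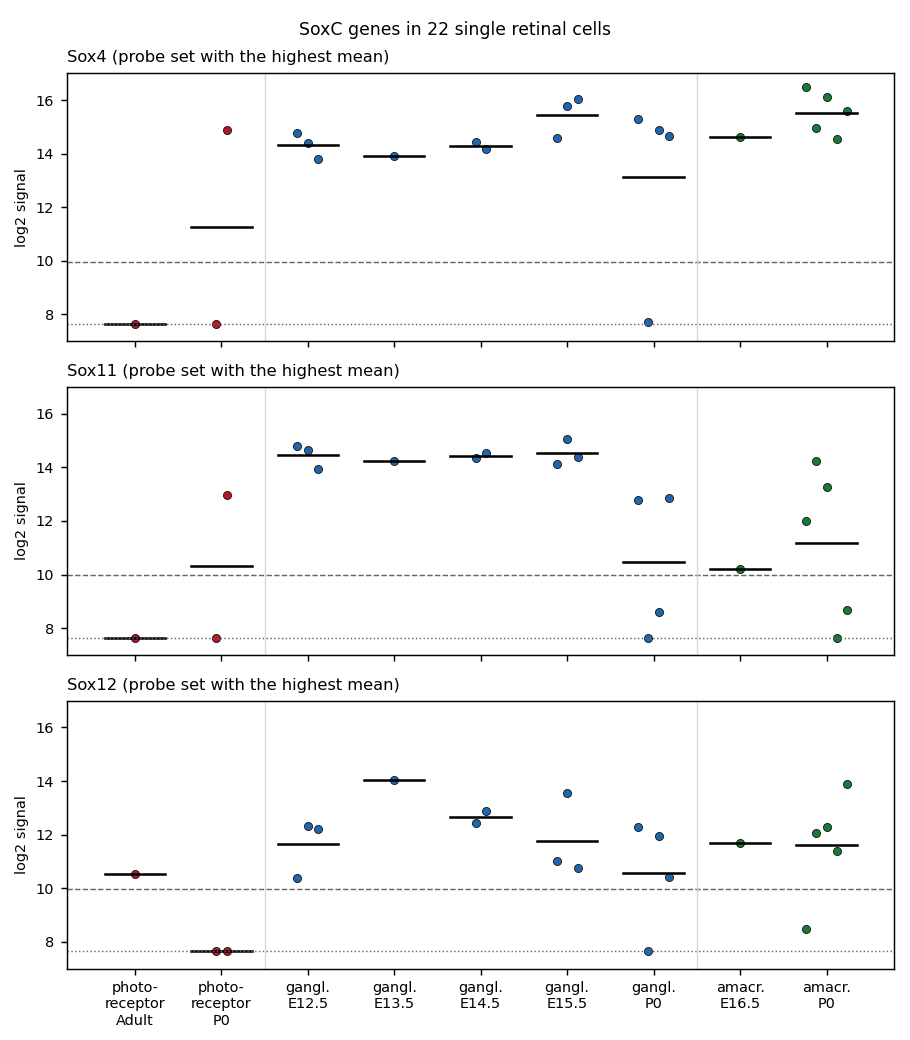
Log2 signal (floored at 200) of Sox4, Sox11 and Sox12 in each of 22 cells, by cell type and stage. Points are cells, black bars the mean of a type and stage, the dashed line a signal of 1000 and the dotted line the floor. For Sox11 the 4 P0 ganglion cells lie between 7.64 and 12.85, and the 9 embryonic ganglion cells between 13.93 and 15.06.

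Sox11, a main regulator of neurite growth and ganglion cell formation among the SoxC factors, was lower in every P0 ganglion cell than in any embryonic ganglion cell. Its signal was 28305.8, 25341.1 and 15623.3 in the ganglion cells of E12.5, 19382.8 in the cell of E13.5, and 20936.1 and 23452 in the cells of E14.5. It was 17949.3, 34190.5 and 21216.6 in the cells of E15.5, and 7088, 130.4, 392 and 7370.3 in the cells of P0. The P0 values did not overlap the embryonic ones: the highest P0 cell had 7370.3 and the lowest embryonic cell 15623.3. The SD on the log2 scale was 2.74 over the P0 cells (n = 4) and 0.35 over the embryonic cells (n = 9).

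On the log2 scale, the stage means of Sox11 were 14.45 at E12.5, 14.24 at E13.5, 14.44 at E14.5, 14.52 at E15.5 and 10.47 at P0. The first 4 means span less than the SD of 0.46 between the cells of E12.5, and P0 minus their mean of 14.41 was -3.94. The median gene among the 7183 tested had a P0 level 0.13 above its embryonic mean. The trend was fitted as a straight line over the 5 stages, each stage counted as 1 sample because no animal is named. The p-values and SEs rest on a spread between samples taken from the trend over expression level, not on each gene's own spread. That spread may be partly technical. The Sox11 slope was -0.77 ± 0.31 per stage step (SE, adjusted p = 1 in limma), which did not pass. With gene-wise variances the SE of this slope was 0.47. In the main fit the slope ranked at 22 of 7183 by p. A single gene passed, 0.0139% of those tested: Crabp1, a retinoic acid binding protein, at -1.85 ± 0.36 (adjusted p = 0.00275).

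Cells were also compared by overlap. Of all tested genes 0.265%, 19 of 7183, had all 4 P0 ganglion cells below all 9 embryonic ones, and Sox11 was among them. A gene at or near the floor in an embryonic cell can hardly meet this rule. Among the 276 genes detected in all 9 embryonic cells, as Sox11 was, 17 met it, or 6.16%. The opposite, all P0 cells above all embryonic ones, held for 31 of 7183 genes. Without P0 cell A6, 20 genes met the rule, Sox11 among them.

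The other 18 genes of that count were Actb, Atpif1, Cdk2ap1, Csrp2, Dhx9, Fscn1, Grb10, Hsp90b1, Igfbpl1 and Pmvk, with 8 ribosomal protein genes (Rpl13a, Rpl22, Rpl35, Rpl38, Rplp2, Rps24, Rps26 and Rps9) of 41 tested. The mean log2 level of the 41 ribosomal protein genes was 10.80 to 12.69 in P0 ganglion cells, against 12.64 to 14.40 in embryonic ones. It therefore moved with stage beside Sox11, and its part in the Sox11 difference was not tested. Without the cell of E13.5 the count was 31 genes, and without P0 cell F1 it was 38. Markers of progenitors and dividing cells were detected at 0, 0, 2 and 0 of 12 in the P0 ganglion cells, against 1 to 9 of 12 in the embryonic ones, and their part was not tested either. Crystallins and globins were detected in embryonic cells of E13.5 to E15.5 alone among the ganglion cells, as given above.

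**Figure D2:**
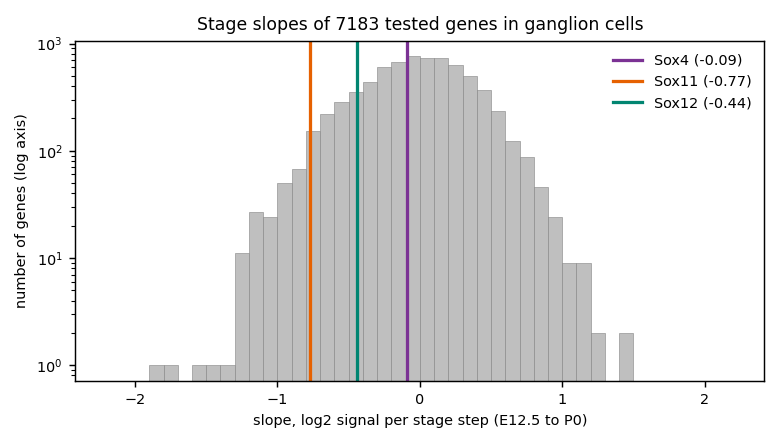
Histogram of the fitted slope of 7183 genes over the 5 ganglion stages, in log2 signal per stage step, with the number of genes on a log axis. Vertical lines mark Sox11 at -0.77, Sox12 at -0.44 and Sox4 at -0.09.

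The 6 Sox11 probe sets were alike in the direction of the slope and unlike in detection. Probe sets 1429051_s_at and 1429372_at, like the main set 1453002_at, were detected in all 9 embryonic ganglion cells. For 1429051_s_at the P0 cells had 57.8 to 3891.1 and the embryonic cells 11532.7 to 27428.2. For 1429372_at the P0 cells had 1.7 to 5191.7 and the embryonic cells 9774.2 to 25322.7. These 3 of 6 sets had no overlap between P0 and embryonic cells, and the share of all probe sets without overlap was not computed. The 3 sets are not independent, as 1453002_at and 1429051_s_at are annotated to the same source sequence. The other Sox11 sets were dimmer, with 1 of 4 P0 cells detected for each of 1453125_at, 1431225_at and 1436790_a_at, against 8, 7 and 4 of 9 embryonic cells. Fitted on their own, all 6 slopes were negative, between -0.88 and -0.37, and none passed over 11717 probe sets tested (limma, adjusted p = 1 for each).

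Sox11 was variable in the other cell types. At the main set its signal was 59.8 in the adult rod, 9.6 in P0 photoreceptor E1 and 8059.7 in P0 photoreceptor H1. In amacrine cells it was 1174.6 in the cell of E16.5 and 4077, 19500.9, 9891.6, 10.2 and 403.2 in those of P0. The P0 cells of all 3 types thus overlapped widely, with 1 of 2 photoreceptors, 2 of 4 ganglion cells and 3 of 5 amacrine cells detected. Sox11 averaged 13.62 ± 1.76 in ganglion samples (log2, SD, n = 5 stages) and 10.68 ± 0.68 in amacrine samples (SD, n = 2). The difference of 2.94 ± 1.44 (SE; limma, adjusted p = 0.999) did not pass. Photoreceptors minus the mean of ganglion and amacrine samples gave -3.18 ± 1.42 (SE; limma, adjusted p = 0.307), which did not pass either. These values are from the main set. On 1429051_s_at the adult rod had 1166 and was thus detected. At P0 alone, ganglion cells were at 10.47 and amacrine cells at 11.16, a difference of -0.69 with 1 sample on each side and no test. The median over tested genes was 0.23 for that difference. Without ganglion cell A6 the Sox11 difference was 0.25.

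The Sox11 probe sets disagreed over amacrine cells. The main set was detected in 4 of 6 amacrine cells, 1429051_s_at in 2, and each of the remaining 4 sets in 1. In P0 amacrine cell B1, whose array was rescaled by 27.6, the main set had 19500.9. There 1453125_at and 1431225_at had 15228 and 16204, their highest values in any of the 22 cells. In the same cell 1429051_s_at had 246.5, 1429372_at 15.4 and 1436790_a_at 83.8, all below 1000. On every set ganglion samples were fitted above amacrine samples, by 2.16 to 3.96 on the log2 scale, with adjusted p = 0.999 for each in limma. The direction was shared by the sets, which are annotated to the same gene and are not independent.

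**Figure D3:**
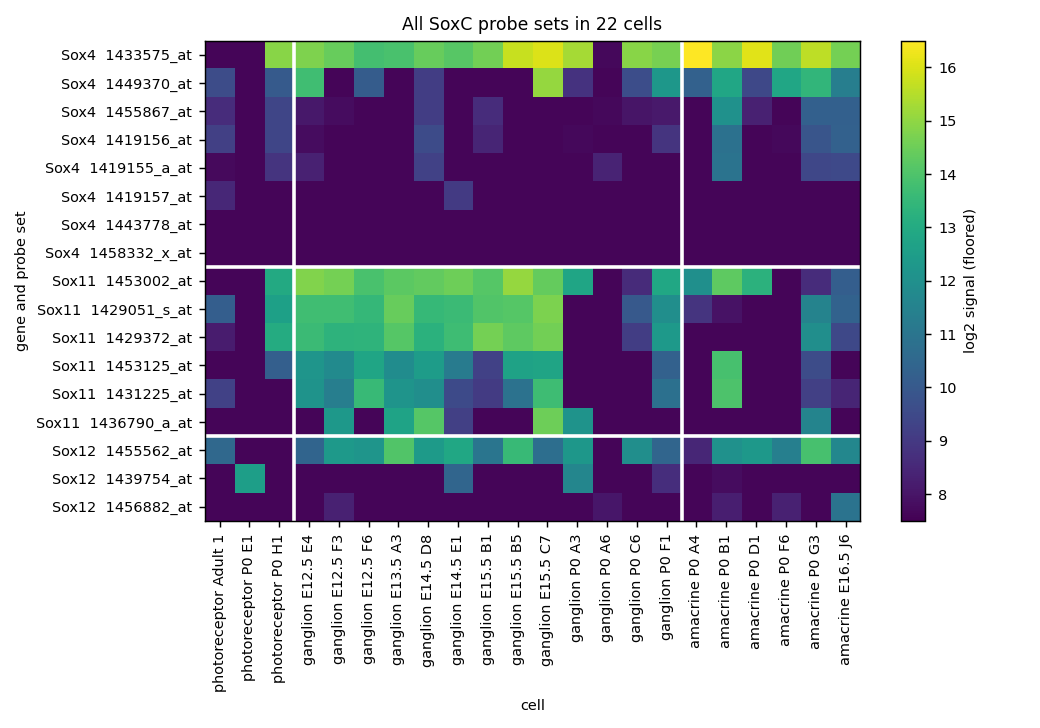
Log2 signal (floored at 200, colour scale) of the 17 SoxC probe sets, in rows grouped by gene, in 22 cells, in columns grouped into photoreceptors, ganglion cells and amacrine cells. The first row of each gene is its main set, and 3 of the Sox11 sets are bright in all 9 embryonic ganglion cells.

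Sox4, which acts with Sox11 on many of the same targets, was detected in 12 of 13 ganglion cells and in 6 of 6 amacrine cells. Its signal was 27857.4, 21697.2 and 14391.4 in the ganglion cells of E12.5, 15396.1 in the cell of E13.5, and 21958.4 and 18274.5 in the cells of E14.5. In the cells of E15.5 Sox4 was 24265.5, 55680.7 and 67068.3, and at P0 it was 40086.8, 207.3, 30283.2 and 25450.9. The P0 cells other than A6 lay within the embryonic range, and A6 lay near the floor. In A6, 5 of 9 ganglion markers were detected, the fewest of any ganglion cell, and its mean ribosomal protein level, log2 10.80, was the lowest of the 22 cells.

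The stage means of Sox4 were 14.33, 13.91, 14.29, 15.45 and 13.13 on the log2 scale from E12.5 to P0. The slope was -0.09 ± 0.27 per step (SE; limma, adjusted p = 1), and it was 0.28 without A6, so that its sign rests on that cell. P0 minus the mean of the 4 embryonic stages was -1.37. Fitted as a step at P0, chosen after seeing the data, it did not pass (limma, adjusted p = 0.979). P0 minus E12.5 was -1.20, and 0.61 without A6. The Sox11 slope minus the Sox4 slope was -0.68 per step. An exact permutation test of the 5 stages, two-sided, gave p = 0.0667 (adjusted p = 0.2 over 3 pairs of genes), where the smallest p possible is 0.0167 before adjustment. A single pair could therefore not fall under an adjusted 0.05, and the test says nothing about whether the slopes differ.

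Sox4 was detected in all 6 amacrine cells, at 25373.8 in the cell of E16.5 and 90789.6, 31724.2, 70008.4, 23924.8 and 49446.5 in those of P0. In photoreceptors it was 18.9 in the adult rod, 84.6 in P0 cell E1 and 30288.9 in P0 cell H1. The adult rod and cell E1 were below every amacrine and ganglion cell, A6 at 207.3 being the nearest, whereas H1 was within their range. Photoreceptors averaged 9.45 ± 2.56 (log2, SD, n = 2 samples), against 14.22 ± 0.84 in ganglion (SD, n = 5) and 15.08 ± 0.64 in amacrine samples (SD, n = 2). The difference between photoreceptors and the mean of the other two types was -5.20 ± 1.26 (SE; limma, adjusted p = 0.00434). Sox4 was the 1 SoxC gene of 3 to pass this contrast, which 2.13% of genes passed, 108 higher and 45 lower in photoreceptors. The photoreceptors were adult or of P0 and most ganglion samples embryonic, so stage and type are partly confounded in it.

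The photoreceptor difference of Sox4 depended on few cells, and its size on the floor. With the adult rod and cell E1 at the floor, the difference was -5.95 with a floor of 100 and -4.24 with 500. Without P0 photoreceptor E1 it was -3.39 (adjusted p = 0.157), and with the E16.5 amacrine cell left out -5.42 (adjusted p = 0.0624). It passed when any other single cell was left out. At P0, the stage all types share, photoreceptors were at 11.27, ganglion cells at 13.13 and amacrine cells at 15.53, with 1 sample each and no test. Cell H1, the photoreceptor with Sox4 and Sox11, had 5 of 12 markers of progenitors and dividing cells detected, and cell E1 had 0. Glial markers were detected at 2 of 5 in H1 (summed signal 18995.9) and 0 of 5 in E1 (356.7), and vascular markers at 1 of 3 in H1 (16642.4, the highest sum of the 22 cells) and 0 of 3 in E1 (378.5). Their part in the levels of Sox4 and Sox11 was not tested.

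Ganglion minus amacrine samples differed in Sox4 by -0.86 ± 1.28 on the log2 scale (SE; limma, adjusted p = 0.999), which is within its error. Only 0.0696% of genes, 5 of 7183, passed in that contrast, and no SoxC gene was among them. At P0 the Sox4 difference was -2.40, and -0.59 without ganglion cell A6. Of the 8 Sox4 probe sets, 5 reached a signal of 1000 in any cell and 3 in at least 3 cells. The second brightest, 1449370_at, was detected in 10 cells: 1 photoreceptor, 4 ganglion cells and 5 amacrine cells. On it and on 1455867_at the photoreceptor difference was -1.18 ± 1.36 and -0.26 ± 0.89 (SE; limma, adjusted p = 0.697 and 0.908). The passing result therefore stands on probe set 1433575_at.

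**Figure D4:**
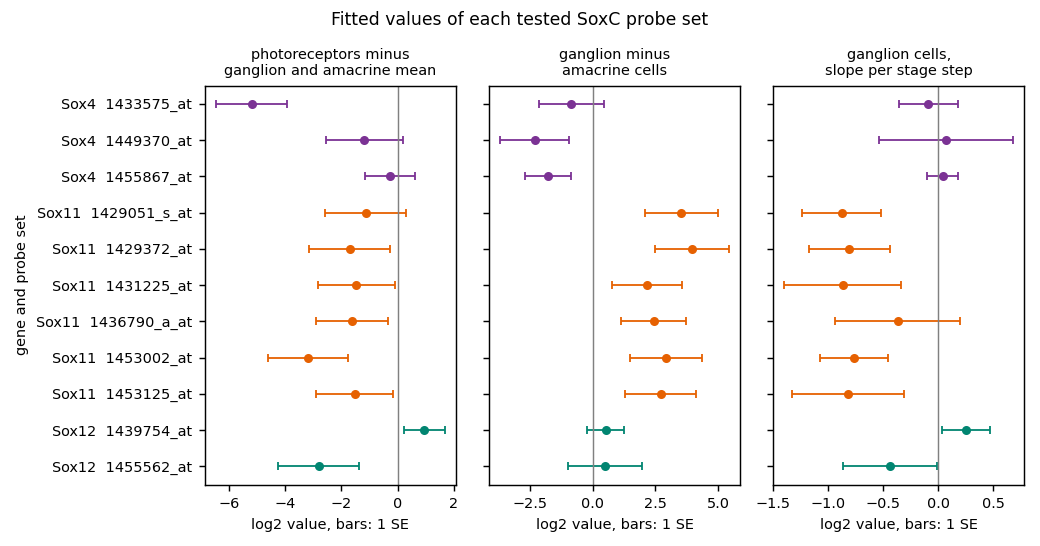
Fitted value of each of the 11 tested SoxC probe sets (points, with bars of 1 SE) for photoreceptors minus the mean of ganglion and amacrine samples, ganglion minus amacrine samples, and the ganglion stage slope. All 6 Sox11 sets lie below 0 for the slope and above 0 for ganglion minus amacrine samples, and 1433575_at of Sox4 lies at -5.20 for photoreceptors.

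Sox12 was detected in most ganglion and amacrine cells with a wide spread. Its signal was 1337.7, 5131.1 and 4748.6 in the ganglion cells of E12.5, 16972.7 in the cell of E13.5, and 5464.9 and 7490.8 in the cells of E14.5. It was 2055.1, 12063.4 and 1711.6 in the cells of E15.5, and 4972.1, 40.1, 3969.5 and 1382 in the cells of P0. The P0 cells other than A6 overlapped the embryonic range. The stage means were 11.64, 14.05, 12.64, 11.77 and 10.58 on the log2 scale from E12.5 to P0, the highest being the single cell of E13.5. The slope of -0.44 ± 0.43 per step (SE; limma, adjusted p = 1) did not pass. P0 minus the mean of the 4 embryonic stages was -1.95. Fitted as a step at P0, chosen after seeing the data, it did not pass in limma. P0 minus E12.5 was -1.06, and -0.09 without A6.

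In photoreceptors the main Sox12 set ran the other way from the main Sox4 and Sox11 sets between ages. It had 1479.5 in the adult rod and 7.7 and 138.1 in P0 cells E1 and H1. The adult rod array had a median signal over all probe sets of 192.1, which only the E16.5 amacrine array exceeded, at 197.7, and 55% of its genes lay above the floor. Its glial markers were detected at 2 of 5 with a summed signal of 248077.6, against at most 18995.9 in any other cell. Whether these bear on Sox12 was not tested. In amacrine cells Sox12 was 3285.3 at E16.5 and 354.6, 4292, 5038.1, 2703.5 and 15221.8 at P0. Photoreceptors minus the mean of ganglion and amacrine samples gave -2.81 ± 1.45 (log2, SE; limma, adjusted p = 0.419), and ganglion samples differed from amacrine samples by 0.48 ± 1.47 (adjusted p = 0.999). Neither passed.

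A second Sox12 probe set, 1439754_at, showed another pattern. Its highest signal, 6023.6, was in P0 photoreceptor E1, where the main Sox12 set had 7.7. It had 3167.2 in P0 ganglion cell A3, 1391.4 in E14.5 ganglion cell E1, and was below 1000 in the other cells. On that set the photoreceptor difference was 0.96 ± 0.72 (SE; limma, adjusted p = 0.585), the opposite sign to the main set. The absence of Sox12 from cell E1 thus held for 1455562_at and not for 1439754_at. The adult rod had 98.9 on 1439754_at and P0 cell H1 had 9.3. The higher Sox12 level in the adult rod than in both P0 photoreceptors was therefore not seen on 1439754_at.

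The adult rod minus the P0 photoreceptors was -3.62 in Sox4, -2.67 in Sox11 and 2.89 in Sox12 on the log2 scale, with no test. The median over tested genes was 0.00. These values are from the main sets. The Sox4 and Sox11 differences rest on cell H1: without it, the adult rod and cell E1 were both at the floor, and these differences were 0.00. With the mean over probe sets the adult minus P0 differences were -0.22 in Sox4, -0.74 in Sox11 and 0.14 in Sox12. Set in order of their means, the 9 type-and-stage samples began with P0 amacrine cells for Sox4 (15.53), E15.5 ganglion cells for Sox11 (14.52) and the E13.5 ganglion cell for Sox12 (14.05). For Sox11 the first 4 places were the 4 embryonic ganglion stages, with means of 14.24 to 14.52. The next place, P0 amacrine cells, was at 11.16, and its cells ran from 7.64 to 14.25, which overlaps them. For Sox4 all neighbours down to P0 ganglion cells overlapped in their cells or held 1 cell.

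Across the 22 cells the log2 levels of Sox4 and Sox11 had a Pearson correlation of 0.60, those of Sox4 and Sox12 0.48 and those of Sox11 and Sox12 0.37. Within the 13 ganglion cells the values were 0.66, 0.64 and 0.58, and cell A6, low in all 3, is a point in each. The correlations with the number of genes detected in a cell were 0.13 for Sox4, 0.00 for Sox11 and 0.32 for Sox12 (n = 22). These are descriptions over cells that share types, stages and possibly animals.

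Of 7182 other genes, those most alike to Sox4 over the 22 cells were Wdr82, a subunit of histone methyltransferase complexes (Pearson r = 0.88), Cd24a, a surface protein of young neurons (0.80), Ran, the nuclear transport GTPase (0.80), Eif4h, a translation initiation factor (0.79), and Miat, a long noncoding RNA (0.78). The lowest were Nptn (-0.86), Styx (-0.80) and Zfx (-0.78). For Sox11 they were Grb10, an adaptor of insulin receptor signalling (0.74), Kpna3, an importin (0.71), Vim, an intermediate filament protein of progenitors and young ganglion cells (0.71), Rc3h2 (0.70) and Fscn1, an actin-bundling protein of growth cones (0.68). The lowest were Kpna6 (-0.84), Dnajc13 (-0.76) and Adcy2 (-0.74). Grb10 and Fscn1 were also among the 19 genes with P0 ganglion cells below all embryonic ones. Both lists were drawn from the same values, so this overlap adds no support to either. Most alike to Sox12 were Calr, a chaperone of the endoplasmic reticulum (0.75), Kansl2 (0.74), Nkain1 (0.72), Dcx (0.71) and U2af2, a splicing factor (0.67). The lowest were Ppm1d (-0.76), Prkd1 (-0.73) and Nop14 (-0.72). Sox4 was at 7.64 in the adult rod and P0 photoreceptor E1 and at 7.70 in ganglion cell A6. Every other cell was at 13.81 or more, so those cells weigh heavily in the Sox4 correlations.

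Among 15 genes of immature neurons, 14 were tested. In photoreceptors 5 of these 14 were lower than in the mean of ganglion and amacrine samples and none was higher, where 0.626% of all tested genes were lower and 1.5% higher. Their median difference was -3.55, against -0.57 for all tested genes. The list was chosen with earlier results of these data known, so its count is a description. A gene near the floor in ganglion and amacrine cells can hardly be lower in photoreceptors. The share among genes as widely detected as those of the list was not computed. Dcx, or doublecortin, a microtubule protein of migrating neurons and a known SoxC target, was at -6.15 ± 1.37 (SE; limma, adjusted p = 0.00128), and was detected in 0 of 3 photoreceptors, 13 of 13 ganglion cells and 6 of 6 amacrine cells. Tubb2b, a tubulin of young neurons, was at -6.14 (adjusted p = 0.00055). Stmn2 and Stmn3, stathmins that regulate microtubules, were at -5.88 and -4.74 (adjusted p = 0.000836 and 0.0164). Cd24a was at -4.70 (adjusted p = 0.00365). Dcx was at the floor in photoreceptors, so the size of its difference follows the floor: -7.15 with a floor of 100 and -4.83 with 500. Dcx also depended on its probe set: it was at -2.22 when its probe sets were averaged (adjusted p = 0.304) and at -2.21 with the second probe set (adjusted p = 0.56). Without the ganglion cells of E13.5 to E15.5, Dcx, Tubb2b, Stmn2 and Stmn3 did not pass (adjusted p = 0.224, 0.256, 0.303 and 0.381), and without the E16.5 amacrine cell Stmn3 did not (adjusted p = 0.152). Sox4 thus fell in the same contrast as these genes, while Stmn1 and Nrep, of the same list, were detected in all 22 cells. Stage and type are partly confounded in this contrast, so a difference by age cannot be told apart from one by type.

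Over the ganglion stages, none of the 14 tested genes of immature neurons passed for the slope, and Sox11 did not pass either. Their median was 0.03 per step, against 0.00 for all genes. The lowest slopes were those of Nhlh2, a helix-loop-helix factor, at -1.04, and Elavl4, an RNA-binding protein of neurons, at -0.98, both below the -0.77 of Sox11. Elavl4 was detected in 2 of 4 P0 ganglion cells, against 8 of 9 embryonic ones, and Nhlh2 in 0 of 4 against 8 of 9. Dcx, Gap43, Stmn2 and Tubb3 were detected in all 13 ganglion cells. None passed between ganglion and amacrine samples, where the list had a median of 0.34 (all genes, -0.06), with Elavl4 at 4.99 ± 1.46 (SE; limma, adjusted p = 0.289) and Gap43, a growth cone protein, at 3.53 ± 1.41 (adjusted p = 0.999).

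Of 10 genes linked to SoxC factors in neurons or retina, 8 were tested. In photoreceptors 1 was higher, Neurod1, a helix-loop-helix factor that photoreceptors keep (5.42 ± 1.44, SE; limma, adjusted p = 0.0139), and 1 was lower, Dcx. Their median was -1.36, against -0.57 for all tested genes. Neurod1 did not pass after quantile normalization (4.65, adjusted p = 0.0733), with medians over cells (5.27, adjusted p = 0.0785), without the ganglion cells of E13.5 to E15.5 (5.08, adjusted p = 0.362), without the adult rod (4.59, adjusted p = 0.312) or without the E16.5 amacrine cell (5.22, adjusted p = 0.134). Isl1, a LIM homeodomain factor of ganglion cells, was at -4.59 ± 1.45 (adjusted p = 0.0621), and the microtubule gene Tubb3 at -2.46 ± 1.08 (adjusted p = 0.293). None of the 8 passed for ganglion minus amacrine samples or for the slope, with medians of 0.57 and 0.03. The log2 means of the 8 genes in P0 ganglion cells, each against E12.5, were mixed. They were lower at P0 for Nrcam (9.61 against 11.97), Isl1 (11.12 against 13.01), Tead2 (7.64 against 9.49) and Dcx (13.05 against 14.02). Tubb3 was at 15.33 against 15.36. They were higher at P0 for Pou4f1 (12.63 against 10.38), Plxna1 (12.56 against 11.70) and Neurod1 (8.94 against 8.63), with no test for any.

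Of 11 upstream factors and partners, 4 were tested and none passed in any of the 3 contrasts, with medians of 0.35 for photoreceptors, -0.03 for ganglion minus amacrine samples and 0.00 for the slope. Neurog2, a proneural factor, was detected in 0 of 3 photoreceptors, 4 of 13 ganglion cells and 4 of 6 amacrine cells, and Atoh7, the factor that makes progenitors competent to form ganglion cells, in 2, 1 and 0. Among 13 genes of progenitors and dividing cells, 8 were tested and none passed, with medians of -0.36 for photoreceptors, 0.69 for ganglion minus amacrine samples and 0.02 for the slope. Of 9 genes of mature neurons and rods, 6 were tested and 3 were higher in photoreceptors: Sag, Pde6b and Syp, of which the first is a gene that marks the type. Of all tested genes 1.5% were higher there. The 16 other Sox genes on the array were each detected in fewer cells than any SoxC gene. Only Sox2, of progenitors and some amacrine cells, and Sox13 were detected in at least 3 cells, where 7183 of all 18193 genes were. Sox2 was detected in 1 of 3 photoreceptors, 2 of 13 ganglion cells and 3 of 6 amacrine cells, with a ganglion minus amacrine difference of -3.95 ± 1.39 (SE; limma, adjusted p = 0.895). Without the E16.5 amacrine cell that difference was -1.76. The remaining 14 were detected in at most 2 cells each.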

How the data were processed

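Single-cell cDNA from 22 cells was hybridised to Affymetrix mouse arrays. The deposited values are signal intensity that the authors computed with MAS5, per the submitters' processing notes, on a linear scale. From the values, 21 arrays had a 2% trimmed mean of 500; P0 amacrine array B1 had 18.1 and was multiplied by 27.6. Symbols came from the platform annotation: 34958 probe sets had 1 symbol, 932 several and 9211 none, and 34754 were matched to RefSeq. Signals were floored at 200 and log2 transformed, and the probe set with the highest mean stood for a gene.

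Log2 values of cells of 1 type and stage were averaged into 9 samples, since no animal is named. Stage and type are partly confounded over these samples, so the comparison of types held no stage term. R 4.3.3 and limma 3.58.1 were used, with eBayes moderating along the mean. The comparison of types left 6 residual degrees of freedom and the slope over 5 ganglion stages left 3. The prior degrees of freedom were estimated as infinite in both, so each gene's error came from the trend over expression level. P-values were adjusted by Benjamini-Hochberg over 7183 genes at a threshold of 0.05. The code was tested on simulated data. The number of arrays limits the precision. Named were the SoxC genes, the 5 most and 3 least alike genes by Pearson correlation, and up to 4 members of each list with the largest difference; further members were named for their values after these were seen. The members and lists were chosen with earlier results of these data known. Alternatives covered the floor, filter, scaling, probe set choice, variance model and left-out cells.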

Additional observations from a re-analysis of the deposited data

Results flagged for a closer look

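Sox4 in P0 ganglion cell A6 stood apart from the other cells of its group, at log2 7.70 against 14.64 to 15.29 in the other 3 P0 ganglion cells. The gap was 0.914 of the group's range. It was the 1 value marked in 8 checks, each made in a group of 4 to 10 cells. Chance marks about 1 in 20 separate checks, whereas these checks share cells. Sox11 and Sox12 were at the floor in the same cell.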

How the results depend on the processing

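The results depended on the following choices. For ganglion minus amacrine samples, 5 genes passed. This count was 1 with a floor of 500, 31 without the filter on dim genes, 10 after quantile normalization, 1 with the mean over probe sets, 0 with the median over cells, 8 with gene-wise variances, 0 with the second probe set, 1 with each probe set on its own, 0 without the E13.5 to E15.5 cells, and 1 to 9 without 1 cell. For photoreceptors 153 passed, and 56 did without the filter, 44 with the mean over probe sets, 47 with medians, 51 with gene-wise variances, 78 with the second probe set, 233 with each probe set on its own, 14 without the E13.5 to E15.5 cells, and 44 to 161 without 1 cell. The slope count of 1 was 0 with a floor of 500, without the filter, with the mean over probe sets, with medians, with gene-wise variances, without the variance trend, without P0 and with the second probe set, 0 to 1 without 1 cell, and 206 with a step at P0. The non-overlap count ran from 19 to 38 without 1 cell.

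Sox4 in photoreceptors did not pass in limma without the filter (-5.20, adjusted p = 0.142) or with gene-wise variances (-5.20, adjusted p = 0.153). Nor did it with the second probe set (-1.18) or without the E13.5 to E15.5 cells (-4.95), and it ran from -7.01 to -3.39 without 1 cell. With the mean over probe sets Sox4 fell out at the filter and was not tested. The step at P0 gave -3.94 for Sox11. It was prompted by the same values and its error leaves out the spread of the P0 cells, so it supports nothing. Signs turned for Sox12 between ganglion and amacrine samples (-0.24 with the mean over probe sets, -0.54 without the E13.5 to E15.5 cells, and 0.01 at P0 with the mean over probe sets), for its photoreceptor difference and slope with the second probe set (0.96 and 0.25) and for P0 minus E12.5 with the mean over probe sets (0.02). They turned for the Sox4 slope with medians (0.26), per embryonic day without P0 (0.38) and with the second probe set (0.07), and between -0.23 and 0.28 without 1 cell. P0 minus E12.5 for Sox4 was 0.36 with medians and ran from -1.92 to 0.61. The Sox11 slope was 0.04 per embryonic day without P0. Adult minus P0 photoreceptors in Sox12 were at 3.65 and 1.57 with floors of 100 and 500, 4.43 after quantile normalization and 0.14 with the mean over probe sets. Adult minus P0 differences ran from -7.24 to 0.00 for Sox4 and from -5.33 to 0.00 for Sox11 without 1 cell. The cause was not tested. Fits without the adult rod or the E16.5 amacrine cell leave 1 sample in a type, which is assumed to vary like the others. No paired analysis was possible because replicate numbers only name the cells. The alternatives without E13.5 to E15.5, with the second probe set or each probe set, and the step were chosen after seeing the data.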
